A study of Mus musculus with 6 samples.

Results

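The genes described here are 41 genes of the lysosome other than cathepsins: enzymes that break down sugars, sulfated sugars and lipids, their helper proteins, proteins of the lysosomal membrane, 3 subunits of the proton pump and the transcription factors Tfeb and Tfe3. They were chosen as a list of symbols, each of which matched 1 row of a table of 54347 genes, and they fall into 7 groups by role. All 41 were above the level used for testing (a mean of 1 TPM over the 6 libraries).

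RNA was measured in cultured neonatal microglia, the resident macrophages of the brain, from Plcg2+/+ and Plcg2-/- littermates of the C57BL/6 strain, with 3 libraries for each genotype. Plcg2 encodes a phospholipase C that signals downstream of immune receptors, and the design compares these genotypes. Forebrains came from pups of postnatal day 2 to 3, the mixed glia were grown with GM-CSF, a myeloid growth factor, and the microglia were shaken off on day 12 to 13 and then rested, for 72 h or longer, with 0.5 ng/mL GM-CSF and 1% serum. Both genotypes were therefore cells of a GM-CSF culture, and the labels do not say which part of Plcg2 is removed or whether a replicate is 1 animal. A library is written here as its genotype followed by its replicate, for example Plcg2+/+ 1.

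Lysosomes are acidic organelles in which a proton-pumping ATPase keeps the pH low and more than one family of hydrolases degrades material from endocytosis, phagocytosis and autophagy. Many lysosomal genes carry an E-box in their promoter that the MiT family of transcription factors (Tfeb, Tfe3, Mitf and Tfec) can bind. Members such as Tfeb and Tfe3 are held in the cytoplasm by the kinase mTORC1 at the lysosomal surface. In microglia, lysosomal genes are of interest because loss of several of them causes storage disease with microglial activation.

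Plcg2 itself stood at 45.2, 39.7 and 54.9 TPM in the Plcg2+/+ libraries and at 16.05, 16.7 and 16.1 TPM in the Plcg2-/- libraries. It fell by 1.45 ± 0.14 in log2 units (SE; limma adjusted p = 0.00141), and was above 0 in every Plcg2-/- library. The microglia and macrophage genes Csf1r and Ptprc were at 503 to 780 and 236 to 367 TPM, while Cx3cr1 lay between 0.0763 and 2.92 TPM. Among microglia genes added after the data were seen, Siglech was at most 0.0341, Sall1 at most 0.371 and Tmem119 at most 1.47 TPM in any library. P2ry12, added likewise, was at 5.56, 2.20 and 9.29 TPM in Plcg2+/+ and at 24.7, 18.9 and 27.7 TPM in Plcg2-/- libraries. Of 9 microglia and macrophage markers, 3 were called higher and 2 lower, and their sum was 5210 to 5582 TPM in Plcg2+/+ and 7067 to 8952 TPM in Plcg2-/- libraries. From Plcg2+/+ to Plcg2-/-, Aif1 rose from 19.0 ± 9.51 to 99.6 ± 52.3 TPM. Fcer1g rose from 1460 ± 221 to 2465 ± 194 and Adgre1 from 287 ± 21.4 to 444 ± 18.5 TPM. Itgam fell from 429 ± 76.5 to 81.8 ± 15.9 and Cx3cr1 from 2.06 ± 0.803 to 0.244 ± 0.145 TPM. Border macrophage markers (4 genes) summed to 181 to 279 TPM in Plcg2+/+ and 369 to 595 TPM in Plcg2-/-. Of 2 tested 1 was called higher (Pf4, 29.2 ± 6.88 to 122 ± 17.8 TPM), and Lyve1 and Cd163 were under 1 TPM everywhere. Astrocyte markers (8 genes) summed to 30.4 to 60.5 TPM in Plcg2+/+ and 43.0 to 59.6 TPM in Plcg2-/-, with 1 called higher of 4 tested (Aldh1l1, 12.3 ± 3.43 to 28.3 ± 8.65 TPM) and Gja1 under 1 TPM. Endothelial and pericyte markers (6 genes) summed to 5.88 to 8.31 and 17.1 to 25.5 TPM, where Kdr was called higher (5.89 ± 1.44 to 19.3 ± 4.24 TPM) and the other 5 were under 1 TPM. Oligodendrocyte lineage markers (9 genes) summed to 56.9 to 123 and 56.0 to 93.5 TPM, where Cspg4 was called lower (9.62 ± 3.24 to 0.471 ± 0.309 TPM), Mbp lay between 32.3 and 83.4 TPM, and Mog and Sox10 were under 1 TPM. With the replicate block C1qa and Ptprc were called higher too, making 5 of 9 microglia and macrophage markers, and so was Mrc1, making 2 of 2 tested border macrophage markers. The part of these markers in the results below was not tested. In bulk samples, fewer cells of a type and less RNA per cell cannot be told apart. Mitochondrially encoded transcripts took 13.6 to 17.3% of all TPM in Plcg2+/+ and 5.00 to 8.68% in Plcg2-/- libraries. Rescaling without these transcripts ended the higher calls of Lamp1, Atp6v0d1 and Gm2a (limma adjusted p = 0.0532, 0.0536 and 0.141). It changed the call of no other gene of the list given at the start. Among other lysosomal genes it ended the higher calls of Atp6v1g1, Plbd2 and Tmem192 (limma adjusted p = 0.0610, 0.0994 and 0.0543). Those of Mtor, Lamtor1 and Lamtor5 ended too (limma adjusted p = 0.0673, 0.0514 and 0.0677). Atp6v0d2, Aga and Spns1 became lower (limma adjusted p = 0.0364, 0.0487 and 0.0215). Beyond this rescaling the part of mitochondrially encoded transcripts in the results was not tested. Y-linked transcripts (4 genes) summed to 0.371, 107 and 112 TPM in Plcg2+/+ 1, 2 and 3 and to 58.6, 0.783 and 0.994 TPM in Plcg2-/- 1, 2 and 3, and Xist, transcribed from the inactive X chromosome, stood at 50.5, 0.747 and 1.02 TPM and at 18.4, 49.4 and 40.2 TPM in the same order. Sex was therefore not balanced between genotypes, and Plcg2-/- 1 held both kinds of transcript at intermediate levels.

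Lysosomal transcripts differed between genotypes in both directions, and most of the 41 were not called. At a limma adjusted p below 0.05, Ids, Ppt1, Lamp1, Atp6v0d1 and Gm2a rose and Gusb, Arsb, Galns, Cd63 and Gla fell, which is 5 higher, 5 lower and 31 not called. That is 12.2% of the 41 genes in each direction, against 15.6% higher and 5.31% lower over all 12652 genes tested. The median log2 fold change of the 41 genes was -0.02, and that of all tested genes 0.19 (knockout minus wild type, on log2(TPM + 1)). TPM is a share of the library, so this offset of 0.19 depends on scaling: after median-of-ratios scaling the 2 medians were -0.24 and -0.0045. With that scaling 2 of the lysosomal genes were higher and 9 lower, against 7.71% and 7.85% of all genes. Of the original calls, 2 increases (Ids and Ppt1) and all 5 decreases were also made after it. With the replicate block 4 were higher and 5 lower, against 19.6% and 6.44% of all genes. Relative to the median of all genes, 12 of the 41 log2 fold changes lay above it and 29 below.

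**Figure D1:**
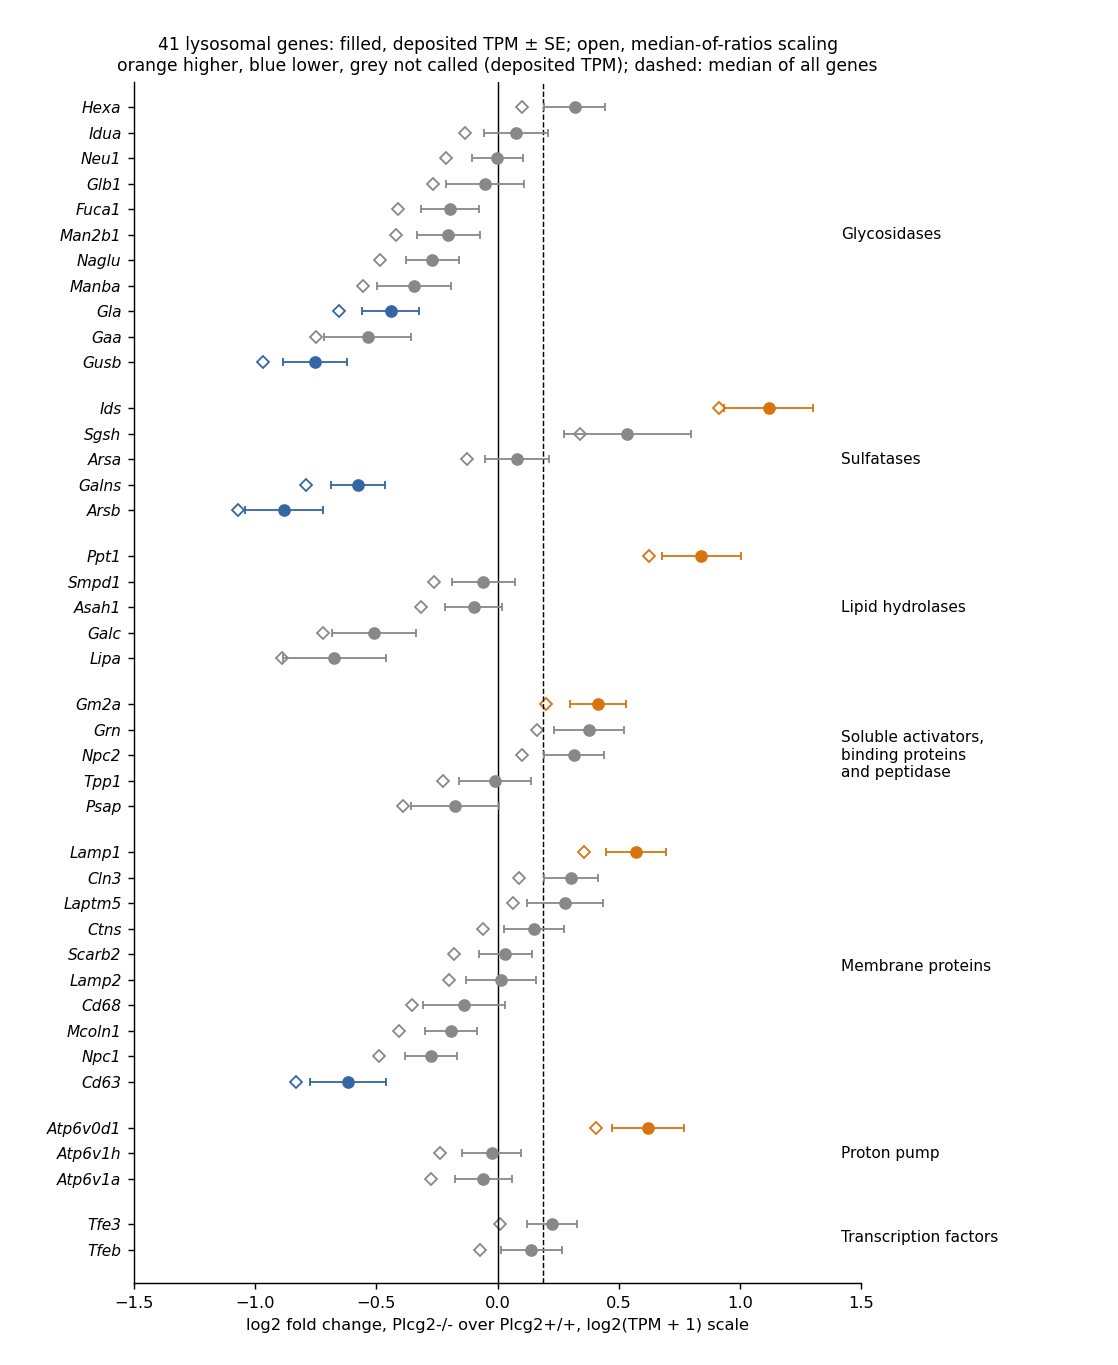
Log2 fold changes of the 41 lysosomal genes by role. The x axis is the log2 fold change, Plcg2-/- minus Plcg2+/+ in log2(TPM + 1), filled points are deposited TPM with moderated standard errors, open points are values after median-of-ratios scaling, and the dashed line is the median of all tested genes (0.19). Ids, at 1.12, is farthest to the right and Arsb, at -0.88, farthest to the left.

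All 3 values of one genotype lay apart from all 3 of the other for 10 lysosomal genes upward and 12 downward, against 32.4% and 10.9% of all tested genes, so 19 of the 41 overlapped between genotypes. The counts depended on single libraries, for these genes and for all genes. Higher and lower counts were 1 and 0 on omitting Plcg2+/+ 1, 4 and 3 on omitting Plcg2+/+ 2, 4 and 6 on omitting Plcg2+/+ 3, 0 and 1 on omitting Plcg2-/- 1, 4 and 4 on omitting Plcg2-/- 2, and 1 and 3 on omitting Plcg2-/- 3. In the same 6 fits the counts over all genes were 782 and 327, 940 and 409, 2106 and 644, 559 and 276, 1801 and 580, and 786 and 397, beside 1971 and 672 with all libraries. With a Y-linked covariate in the fit 1 gene, Ids, was higher and 2, Gusb and Arsb, were lower. Over all genes the counts with this covariate were 842 higher and 375 lower.

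Levels spanned a wide range, as the plot of both genotypes shows. Psap, the precursor of the saposins that help sphingolipid hydrolases, was the most abundant at 13009.8, 15068.6 and 12214.3 TPM in Plcg2+/+ and 12316.9, 11424.9 and 11829.6 TPM in Plcg2-/- libraries. It made up 41.6% of the summed TPM of the 41 genes in Plcg2+/+ and 38.4% in Plcg2-/-. The summed TPM of all 41 was 32259 ± 2868 in Plcg2+/+ and 30856 ± 685 in Plcg2-/- (SD, n = 3 each), 3.23% and 3.09% of all TPM. Without Psap the sums were 18828 ± 1433 and 18999 ± 255 TPM. The library Plcg2+/+ 2 held the highest of all 6 values for 20 of the 41 genes, among them Psap, Cd63, Lipa and Gusb. Within a genotype the coefficient of variation had a median of 10.2% in Plcg2+/+ and 9.05% in Plcg2-/- libraries.

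**Figure D2:**
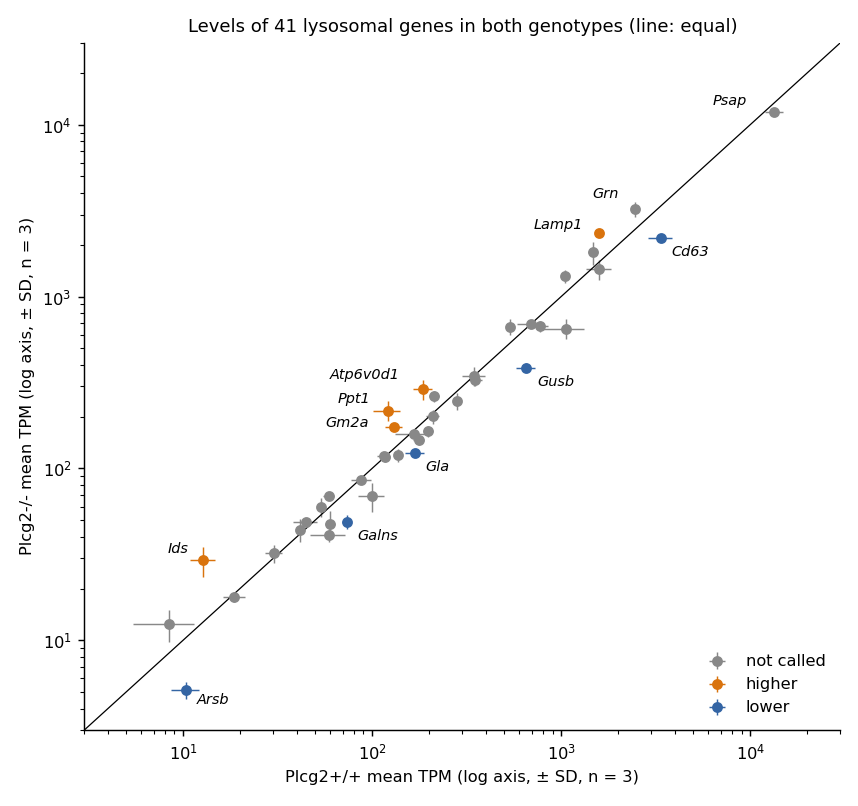
Mean TPM of the 41 lysosomal genes in Plcg2+/+ (x axis) and Plcg2-/- (y axis) microglia, both on log axes, with SD bars (n = 3). Points on the line have equal levels, Psap lies at the upper right, and the 10 called genes are coloured.

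Neither transcription factor was called. Tfeb (ENSMUSG00000023990.18, GRCm38 chromosome 17, 47737030 to 47792419, plus strand) stood at 37.5, 47.3 and 49.1 TPM in Plcg2+/+ and at 49.5, 48.3 and 49.02 TPM in Plcg2-/- libraries, where the values of the genotypes overlap. Tfe3 (ENSMUSG00000000134.17, chromosome X, 7762560 to 7775202, plus strand) stood at 61.2, 61.3 and 54.5 TPM in Plcg2+/+ and at 67.1, 73.5 and 66.6 TPM in Plcg2-/-, all 3 above. Their log2 differences were 0.14 ± 0.13 and 0.22 ± 0.10 (SE; limma adjusted p = 0.458 and 0.162). After median-of-ratios scaling they were -0.07 and 0.01, so the sign for Tfeb depends on scale.

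Of the related genes, Tfec, a MiT factor of myeloid cells, rose from 45.9 ± 13.2 to 106 ± 21.0 TPM, and Mitf stood at 21.6 ± 3.49 TPM in Plcg2+/+ against 17.9 ± 0.948 TPM in Plcg2-/- (SD, n = 3 each; limma adjusted p = 0.0196 and 0.244). Rragd and Rragc, GTPases through which mTORC1 reaches the lysosome, rose from 5.53 ± 0.851 to 11.3 ± 0.632 and from 134 ± 16.6 to 224 ± 33.4 TPM (limma adjusted p = 0.00647 and 0.0200). Lamtor1, the membrane anchor of the Ragulator complex that holds those GTPases, rose from 105 ± 12.3 to 151 ± 5.10 TPM (limma adjusted p = 0.0229). Of 19 tested MiT and mTORC1 control genes 6 were higher and 0 lower, beside 15.6% and 5.31% of all genes, with a median log2 fold change of 0.36 against 0.19 for all genes. After median-of-ratios scaling 3 were higher and 0 lower, beside 7.71% and 7.85% of all genes, and the limma adjusted p of Lamtor1 was 0.0710. Rragd kept its call without any 1 library. Tfec had a limma adjusted p of 0.0511 on omitting Plcg2+/+ 1, 0.0885 on omitting Plcg2-/- 1 and 0.0744 on omitting Plcg2-/- 3. For Rragc it was 0.0675 on omitting Plcg2+/+ 1, 0.0589 on omitting Plcg2+/+ 2, 0.0869 on omitting Plcg2-/- 1 and 0.0747 on omitting Plcg2-/- 3. For Lamtor1 it was 0.0826 and 0.0603 on omitting Plcg2+/+ 1 and 2, and 0.0770 and 0.0811 on omitting Plcg2-/- 1 and 3. The remaining increases were Mtor and Lamtor5. Among other alternatives, both lost their calls after median-of-ratios scaling (limma adjusted p = 0.131 and 0.101) and on omitting Plcg2-/- 1 (0.134 and 0.130). With a Y-linked covariate the limma adjusted p was 0.0601 for Tfec and Rragc, 0.0721 for Lamtor1, 0.0916 for Mtor and 0.0953 for Lamtor5.

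The E-box searched for was CACGTG, which reads the same on both strands, with 2 longer forms that contain it, TCACGTGA and the same letters with a G before and a C after them. RefSeq promoter windows on GRCm38.p6, from 250 bases before to 50 bases after the start site, were found for 37 of the 41 genes, 43 windows in all. Of these genes, 11 had a window with CACGTG (29.7%), against 8.09% of the 27025 genes with a window and 12.1% of the 9258 tested genes with one. The form TCACGTGA was in 5 of the 37 (13.5%, against 1.12% of all and 2.29% of tested genes) and the longest form in 1, Cln3 (2.70%, against 0.370% and 0.853%). The windows of called genes that hold the E-box are printed here, from 250 bases before the start through its first 10 bases, with Cln3 added after the search as the single gene with the longest form. Capitals mark CACGTG. Cln3 has another window as well (chr7:126585768-126586067, minus strand), which holds no CACGTG and is not printed. Lamp1 is at chr8:13158911-13159170 (plus strand), Atp6v0d1 at chr8:105566055-105566314, Gla at chrX:134600996-134601255 and Cln3 at chr7:126583227-126583486 (all 3 minus strand).
Lamp1: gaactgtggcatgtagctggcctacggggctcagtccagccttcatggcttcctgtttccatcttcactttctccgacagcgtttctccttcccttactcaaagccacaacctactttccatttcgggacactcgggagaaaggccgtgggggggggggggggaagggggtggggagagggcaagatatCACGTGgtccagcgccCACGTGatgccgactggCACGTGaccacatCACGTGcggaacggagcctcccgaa
Atp6v0d1: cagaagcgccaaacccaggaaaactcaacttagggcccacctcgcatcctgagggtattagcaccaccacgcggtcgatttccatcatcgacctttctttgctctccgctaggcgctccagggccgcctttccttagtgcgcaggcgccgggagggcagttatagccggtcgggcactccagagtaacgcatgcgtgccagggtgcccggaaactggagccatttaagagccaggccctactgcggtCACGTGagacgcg
Gla: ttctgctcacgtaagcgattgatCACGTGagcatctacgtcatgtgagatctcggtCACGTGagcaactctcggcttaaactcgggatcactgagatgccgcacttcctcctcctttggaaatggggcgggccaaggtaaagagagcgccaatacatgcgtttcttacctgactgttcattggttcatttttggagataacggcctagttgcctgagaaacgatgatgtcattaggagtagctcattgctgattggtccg
Cln3: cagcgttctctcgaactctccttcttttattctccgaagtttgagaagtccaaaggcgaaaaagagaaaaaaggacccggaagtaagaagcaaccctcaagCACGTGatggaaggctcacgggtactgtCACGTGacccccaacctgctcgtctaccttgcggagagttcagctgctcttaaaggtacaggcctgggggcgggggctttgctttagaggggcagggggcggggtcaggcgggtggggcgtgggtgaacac

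The Lamp1 window held 4 E-boxes, the first beginning 61 bases and the last 15 bases before the start site. Only 8 of all 32851 windows (0.0244%) held 4 or more. In the Atp6v0d1 window the E-box overlaps the start site and has the form TCACGTGA, and both E-boxes of the Gla window have that form too. The 3 called genes with an E-box moved in different directions: Lamp1 and Atp6v0d1 rose and Gla fell. Over the 11 genes with an E-box 2 were higher and 1 lower, with a median log2 fold change of -0.05. Over the 26 without one 3 were higher and 3 lower, with a median of 0.01. Of all tested genes 15.6% were higher and 5.31% lower. A match describes these letters only and is not a binding measurement.

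**Figure D3:**
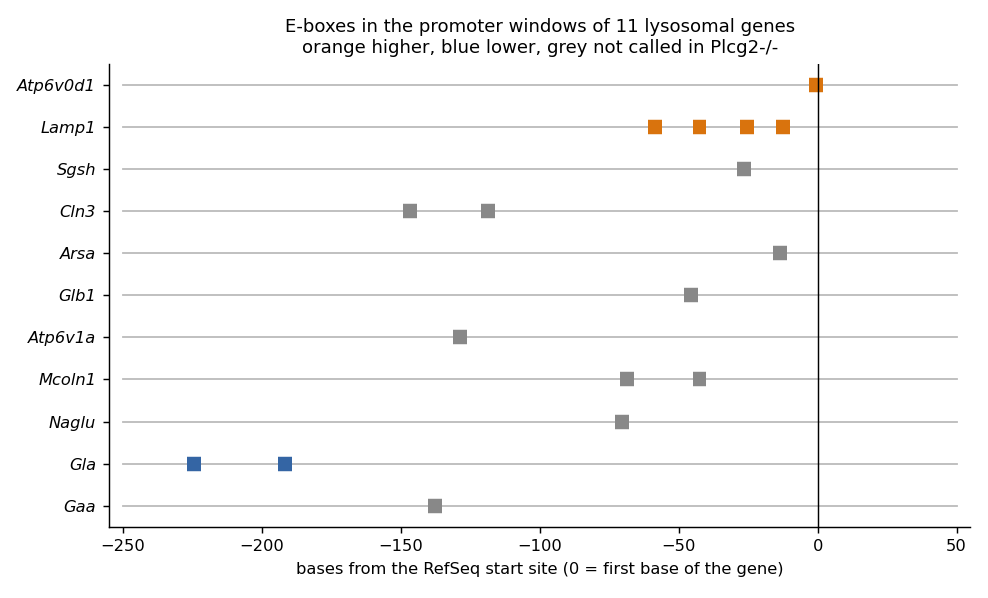
Positions of CACGTG in the promoter windows of the 11 lysosomal genes that hold it, in bases from the RefSeq start site (x axis), 1 row per gene in order of log2 fold change. Lamp1 has 4 E-boxes close to the start and Gla has 2 near the far end of the window.

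The proton pump moved unevenly among its subunits. Atp6v0d1 (ENSMUSG00000013160.7, chromosome 8, 105524465 to 105566047, minus strand), the widely expressed d subunit of the membrane sector, was at 184, 167 and 209.6 TPM in Plcg2+/+ and at 308, 243 and 314 TPM in Plcg2-/- libraries. Every Plcg2-/- value was above every Plcg2+/+ value, and Atp6v0d1 rose by 0.62 ± 0.15 in log2 units (SE; limma adjusted p = 0.0283). With median-of-ratios scaling its limma adjusted p became 0.0592, and with the deposited scale it was 0.0929 on omitting Plcg2+/+ 1, 0.0805 on omitting Plcg2+/+ 2, 0.110 on omitting Plcg2-/- 1 and 0.0978 on omitting Plcg2-/- 3. Atp6v1a and Atp6v1h, subunits of the catalytic sector, stood at 209 ± 16.2 and 87.8 ± 10.4 TPM in Plcg2+/+ against 201 ± 18.7 and 86.0 ± 4.66 TPM in Plcg2-/- (SD, n = 3 each), with overlapping values.

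Atp6v0d2, the other d subunit, which is abundant in osteoclasts and some macrophages, was at 430, 387 and 401 TPM in Plcg2+/+ and at 260, 202 and 336 TPM in Plcg2-/- libraries. All 3 were below, but Atp6v0d2 was not called on the deposited scale (limma adjusted p = 0.0547). It was called lower with the replicate block (limma adjusted p = 0.0430), after median-of-ratios scaling (0.0198), on omitting Plcg2-/- 3 (0.0358) and with a mean of at least 5 TPM as the filter (0.0460). The same held after quantile normalization (0.0278) and for the block with median-of-ratios scaling (0.0298). It also held when rescaled without mitochondrially encoded genes (0.0364) or without the 100 most abundant genes (0.0199). In the remaining alternatives Atp6v0d2 was not called. The share of Atp6v0d1 in the summed TPM of both d subunits does not depend on library scaling. It was 29.9, 30.1 and 34.3% in Plcg2+/+ and 54.2, 54.6 and 48.3% in Plcg2-/- libraries, a mean of 31.4 ± 2.50 and 52.4 ± 3.53% (SD, n = 3 each; two-sided exact permutation p = 0.1, which is the lowest value possible with 3 libraries a group). The more abundant d subunit transcript was thus Atp6v0d2 in all Plcg2+/+ libraries and Atp6v0d1 in Plcg2-/- 1 and 2.

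Among the a subunits, which anchor the pump to particular membranes, Atp6v0a2 rose from 16.2 ± 0.595 to 23.8 ± 1.31 TPM, and Tcirg1, the a3 subunit of lysosomes and osteoclasts, fell from 1268 ± 234 to 763 ± 73.7 TPM (SD, n = 3 each; limma adjusted p = 0.0155 and 0.0303). Atp6v1g1 rose from 235 ± 33.8 to 339 ± 13.1 TPM and the accessory subunit gene Atp6ap2 fell from 333 ± 24.3 to 247 ± 2.94 TPM (limma adjusted p = 0.0317 and 0.0315). Of the 15 other pump genes 2 were higher (13.3%) and 3 lower (20%), beside 15.6% and 5.31% of all genes. The remaining decrease was Atp6v0a1 (limma adjusted p = 0.0449). After median-of-ratios scaling 0 were higher and 6 lower, beside 7.71% and 7.85% of all genes. The median log2 fold change of the 15 was -0.09. Single libraries ended these calls. The limma adjusted p on omitting Plcg2+/+ 1 was 0.0514 for Atp6v0a2, 0.106 for Tcirg1, 0.0993 for Atp6v1g1, 0.0929 for Atp6ap2 and 0.139 for Atp6v0a1, and on omitting Plcg2+/+ 2 it was 0.0856 for Tcirg1, 0.0673 for Atp6v1g1, 0.0645 for Atp6ap2 and 0.117 for Atp6v0a1. On omitting Plcg2-/- 1 it was 0.0754, 0.108, 0.116, 0.103 and 0.116 for the same 5 in that order. On omitting Plcg2-/- 2 it was 0.0526 for Tcirg1, 0.0623 for Atp6v1g1, 0.0552 for Atp6ap2 and 0.0782 for Atp6v0a1, and on omitting Plcg2-/- 3 it was 0.108, 0.0869, 0.0964 and 0.0659 for these 4. Atp6v0a2 and Atp6v1g1 had a limma adjusted p of 0.0917 each after median-of-ratios scaling. A Y-linked covariate also ended these calls. With it the limma adjusted p was 0.0542 for Atp6v0a2, 0.0639 for Tcirg1, 0.0838 for Atp6v1g1 and 0.0968 for both Atp6ap2 and Atp6v0a1.

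**Figure D4:**
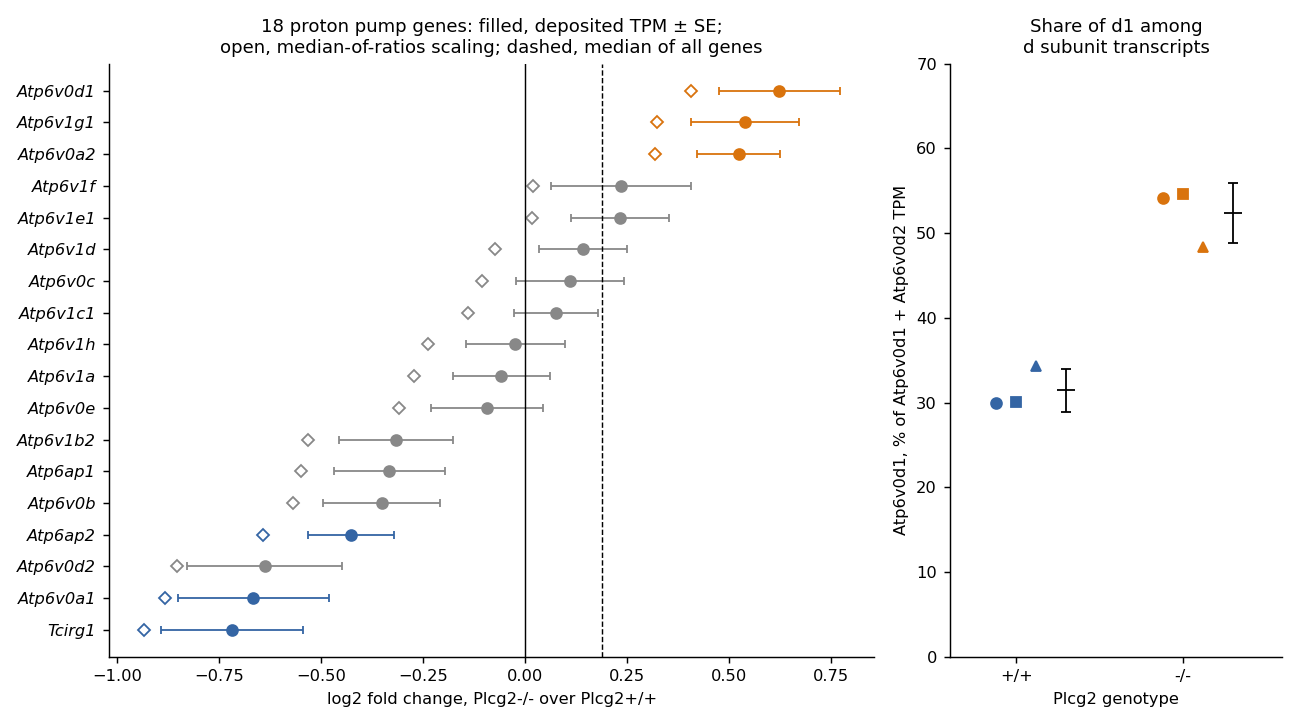
Left, log2 fold changes (Plcg2-/- over Plcg2+/+) of 18 proton pump genes, filled points with SE for deposited TPM and open points for median-of-ratios scaling, dashed line at the median of all genes. Right, the percentage of Atp6v0d1 in Atp6v0d1 plus Atp6v0d2 TPM per library (circle, square and triangle for replicates 1, 2 and 3) with mean ± SD, 31.4% in Plcg2+/+ and 52.4% in Plcg2-/-.

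Of 10 membrane proteins, Lamp1 rose, Cd63 fell and 8 were not called. That is 10% in each direction, beside 15.6% higher and 5.31% lower over all genes. Lamp1 (ENSMUSG00000031447.7, chromosome 8, 13159161 to 13175338, plus strand), a heavily glycosylated protein that lines the lysosomal membrane, was at 1549, 1649 and 1540 TPM in Plcg2+/+ and at 2428, 2269 and 2344 TPM in Plcg2-/- libraries. The genotypes were well apart, at 1.49 times the mean, and Lamp1 rose by 0.57 ± 0.12 in log2 units (SE; limma adjusted p = 0.0209). With median-of-ratios scaling the limma adjusted p for Lamp1 became 0.112, and with the deposited scale it was 0.0899 on omitting Plcg2+/+ 1, 0.0918 on omitting Plcg2-/- 1 and 0.0775 on omitting Plcg2-/- 3. Its relative Lamp2, which is also the receptor of chaperone-mediated autophagy, was level at 695 ± 111 TPM in Plcg2+/+ against 697 ± 16.8 TPM in Plcg2-/- (SD, n = 3 each).

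Cd63 (ENSMUSG00000025351.14, chromosome 10, 128900989 to 128912822, plus strand), a tetraspanin of late endosomes, lysosomes and exosomes, was at 2918, 3915 and 3288 TPM in Plcg2+/+ and at 2177, 2267 and 2106 TPM in Plcg2-/- libraries, all 3 below. It fell by 0.62 ± 0.16 in log2 units (SE; limma adjusted p = 0.0351, 0.0522 with the replicate block). Leaving out any 1 library ended the call of Cd63, with limma adjusted p of 0.0694, 0.0621 and 0.0568 on omitting Plcg2+/+ 1, 2 and 3 and 0.128, 0.0788 and 0.122 on omitting Plcg2-/- 1, 2 and 3. Cd68, the scavenger-like glycoprotein used as a macrophage marker, stood at 1587 ± 237 TPM in Plcg2+/+ against 1439 ± 183 TPM in Plcg2-/-, and Laptm5, a lysosomal protein of blood cells, at 1480 ± 94.2 TPM in Plcg2+/+ against 1807 ± 271 TPM in Plcg2-/- (SD, n = 3 each). Both overlapped between genotypes. Npc1, the membrane exporter of lysosomal cholesterol, was at 178, 187 and 163 TPM in Plcg2+/+ and 139, 142 and 155 TPM in Plcg2-/-, not called (limma adjusted p = 0.111) but lower after median-of-ratios scaling (limma adjusted p = 0.0366), where the replicate block ended the call (0.0501). Mcoln1, a calcium channel of the lysosome, Cln3, Ctns, the cystine exporter, and Scarb2, the receptor that carries glucocerebrosidase, had log2 differences of -0.19, 0.30, 0.15 and 0.03 (lowest limma adjusted p = 0.0922).

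In the list of other lysosomal membrane genes the 2-pore calcium channels fell. Tpcn2 fell from 131 ± 25.0 to 25.1 ± 1.398 TPM and Tpcn1 from 19.9 ± 5.62 to 6.21 ± 1.15 TPM (SD, n = 3 each; limma adjusted p = 0.000737 and 0.00590). Per library Tpcn2 was at 148, 142 and 102 TPM in Plcg2+/+ and at 23.6, 26.4 and 25.3 TPM in Plcg2-/-, a larger change than that of any of the 41 genes. Mfsd1, a transporter of the lysosomal membrane, rose from 109 ± 8.34 to 206 ± 17.1 TPM (limma adjusted p = 0.00351), and the lipid transporter gene Abca2 fell from 17.9 ± 3.04 to 11.2 ± 0.809 TPM (limma adjusted p = 0.0274). The first 3 kept their calls without any 1 library, and Abca2 lost its call on omitting each of Plcg2+/+ 1 and 2 and Plcg2-/- 1, 2 and 3 (limma adjusted p = 0.0508, 0.0700, 0.0973, 0.0508 and 0.0974). Of 20 tested genes of this list 2 were higher (10%) and 3 lower (15%), beside 15.6% and 5.31% of all genes. The remaining increase was Tmem192 (limma adjusted p = 0.0284, 0.0689 after median-of-ratios scaling, 0.0934 and 0.0718 on omitting Plcg2+/+ 1 and 2, 0.109 and 0.0912 on omitting Plcg2-/- 1 and 3). A Y-linked covariate ended the calls of Abca2 and Tmem192 (limma adjusted p = 0.0823 and 0.0732).

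Of 11 glycosidases 2 fell (18.2%), 0 rose and 9 were not called, beside 5.31% lower and 15.6% higher over all genes. Gusb (ENSMUSG00000025534.17, chromosome 5, 129989011 to 130003049, minus strand), the beta-glucuronidase that trims glycosaminoglycans, was at 672, 720 and 569.8 TPM in Plcg2+/+ and at 375, 371 and 413 TPM in Plcg2-/- libraries. The lowest Plcg2+/+ value lay above the highest Plcg2-/- value, and Gusb fell by 0.75 ± 0.13 in log2 units (SE; limma adjusted p = 0.0107). Its limma adjusted p was 0.0508 on omitting Plcg2+/+ 1 and 0.0556 on omitting Plcg2-/- 1.

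Gla (ENSMUSG00000031266.7, chromosome X, 134588149 to 134601125, minus strand), the alpha-galactosidase deficient in Fabry disease, was at 169.8, 186 and 147 TPM in Plcg2+/+ and at 127, 122 and 120.4 TPM in Plcg2-/- libraries, again without overlap. It fell by 0.44 ± 0.12 in log2 units (SE; limma adjusted p = 0.0398). The call of Gla was lost on omitting Plcg2+/+ 1 and 2 (limma adjusted p = 0.115 and 0.0909) and on omitting Plcg2-/- 1, 2 and 3 (limma adjusted p = 0.110, 0.0770 and 0.117). Gaa, the acid alpha-glucosidase that degrades glycogen, was at 86.3, 117 and 97.1 TPM in Plcg2+/+ and 56.1, 83.2 and 68.0 TPM in Plcg2-/-. It was not called (limma adjusted p = 0.0756) but was lower with the replicate block (limma adjusted p = 0.0182), on omitting Plcg2-/- 2 (0.0484) and after median-of-ratios scaling (0.0493).

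Naglu, which acts on heparan sulfate, and Manba, a beta-mannosidase, were not called at log2 differences of -0.27 and -0.34 (limma adjusted p = 0.119 and 0.149, and 0.0447 and 0.0349 after median-of-ratios scaling). Hexa, a hydrolase gene of ganglioside breakdown, lay the other way, at 1011, 1090 and 1049 TPM in Plcg2+/+ and 1296, 1439 and 1204 TPM in Plcg2-/-, but was not called (limma adjusted p = 0.114). Neu1, the sialidase, had equal means of 117 ± 7.25 TPM in Plcg2+/+ against 117 ± 7.28 TPM in Plcg2-/- libraries (SD, n = 3 each). Fuca1, Man2b1, Glb1 and Idua, which remove fucose, mannose, galactose and iduronic acid, had log2 differences of -0.20, -0.20, -0.05 and 0.08 and overlapped between genotypes. The summed TPM of the 11 glycosidases was 3612 ± 261 in Plcg2+/+ and 3341 ± 90.1 in Plcg2-/- libraries.

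**Figure D5:**
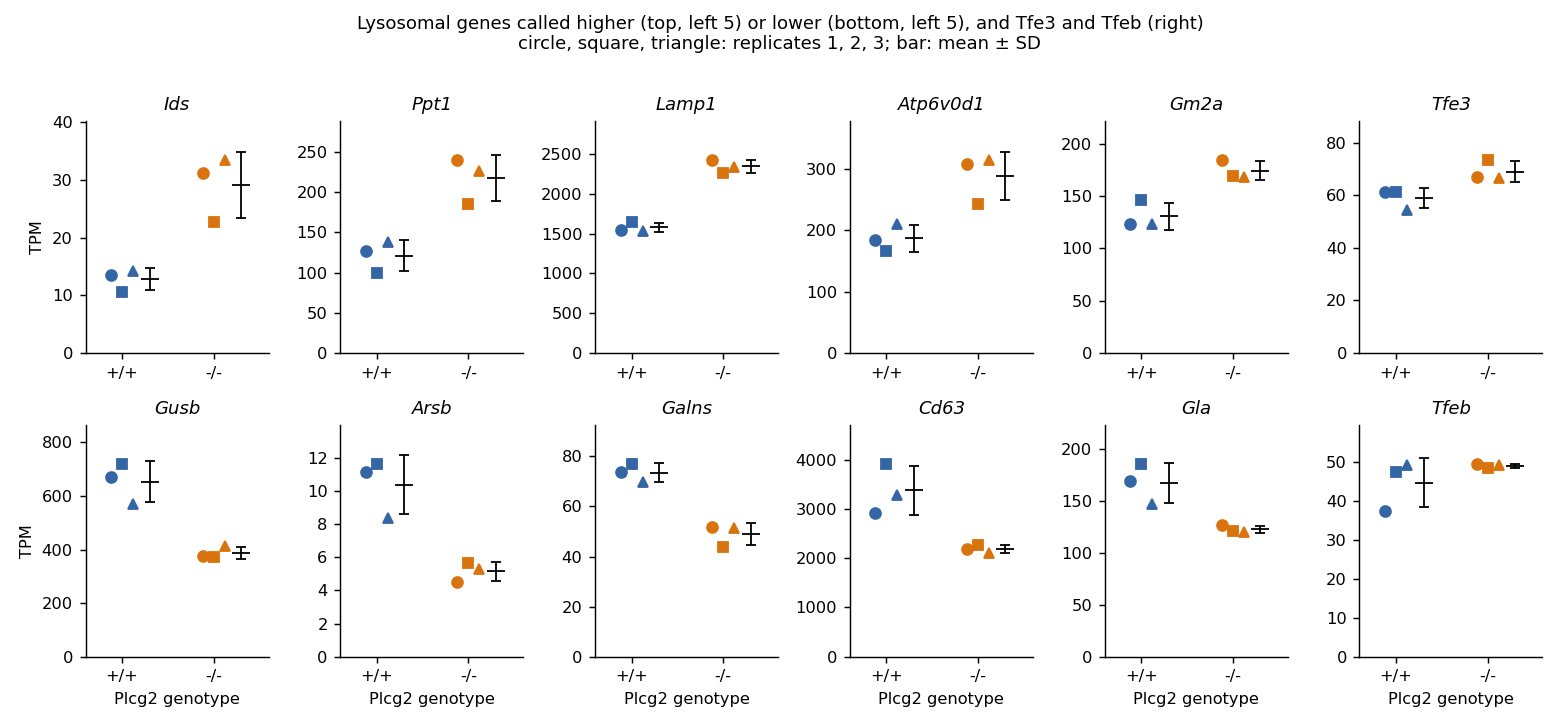
TPM per library of the 10 called lysosomal genes and both transcription factors, Plcg2+/+ in blue and Plcg2-/- in orange, with circle, square and triangle for replicates 1, 2 and 3 and bars for mean ± SD (n = 3). The genotypes are separate in each of the 10 called genes, in Tfe3 too, and overlap in Tfeb.

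Sulfatases, which strip sulfate groups from glycosaminoglycans and sulfolipids, moved in opposite directions: of 5, Ids rose, Arsb and Galns fell and 2 were not called. Over all genes 15.6% were higher and 5.31% lower. Ids (ENSMUSG00000035847.15, chromosome X, 70343069 to 70365084, minus strand), the iduronate sulfatase deficient in Hunter syndrome, was at 13.6, 10.6 and 14.2 TPM in Plcg2+/+ and at 31.3, 22.7 and 33.5 TPM in Plcg2-/- libraries. The means differed 2.28 times, the largest increase of the 41 genes, and Ids rose by 1.12 ± 0.18 in log2 units (SE; limma adjusted p = 0.00880, 0.0336 with a Y-linked covariate). Of the 19 alternatives Ids lost its call in 1, on omitting Plcg2-/- 1 (limma adjusted p = 0.0524).

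Arsb (ENSMUSG00000042082.7, chromosome 13, 93771630 to 93943016, plus strand), which removes sulfate from dermatan and chondroitin sulfate, was at 11.1, 11.6 and 8.37 TPM in Plcg2+/+ and at 4.53, 5.64 and 5.26 TPM in Plcg2-/- libraries. Galns (ENSMUSG00000015027.11, chromosome 8, 122578242 to 122611463, minus strand), which acts on keratan and chondroitin sulfate, was at 73.7, 76.995 and 69.6 TPM in Plcg2+/+ and at 51.9, 43.8 and 51.2 TPM in Plcg2-/-. For both genes every Plcg2-/- value was below every Plcg2+/+ value. Arsb fell by 0.88 ± 0.16 and Galns by 0.58 ± 0.11 in log2 units (SE; limma adjusted p = 0.0127 and 0.0151). The limma adjusted p on omitting Plcg2+/+ 1 was 0.0571 for Arsb and 0.0591 for Galns, and on omitting Plcg2-/- 1 it was 0.0658 for Arsb. Sgsh, which acts on heparan sulfate, was at 8.58, 11.4 and 5.37 TPM in Plcg2+/+ and 10.8, 15.3 and 10.98 TPM in Plcg2-/-, and Arsa, which acts on sulfatide, at 30.2 ± 3.07 TPM in Plcg2+/+ against 32.1 ± 3.75 TPM in Plcg2-/- (SD, n = 3 each; limma adjusted p = 0.183 and 0.686).

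Among 5 lipid hydrolases 1 rose and 0 fell, beside 15.6% higher and 5.31% lower over all genes. Ppt1 (ENSMUSG00000028657.14, chromosome 4, 122836242 to 122859175, plus strand), a thioesterase that removes palmitate from proteins, was at 127, 99.3 and 137 TPM in Plcg2+/+ and at 240.0, 185 and 226 TPM in Plcg2-/- libraries. Its values did not overlap, and Ppt1 rose by 0.84 ± 0.16 in log2 units (SE; limma adjusted p = 0.0156). The call was lost on omitting Plcg2+/+ 1 (0.0540), on omitting Plcg2-/- 1 (0.0736) and on omitting Plcg2-/- 3 (0.0621). Lipa, the acid lipase that frees cholesterol from its esters, lay the other way at 1080, 1306 and 781 TPM in Plcg2+/+ and 551, 697 and 706 TPM in Plcg2-/-. Galc, which degrades galactosylceramide, was at 60.0, 71.8 and 46.6 TPM in Plcg2+/+ and 36.8, 44.0 and 42.0 TPM in Plcg2-/-. Neither was called (limma adjusted p = 0.0653 and 0.0764), though both were lower on omitting Plcg2+/+ 3 (limma adjusted p = 0.0241 and 0.0266) and with the replicate block and median-of-ratios scaling together (0.0470 and 0.0352). Asah1 and Smpd1, which degrade ceramide and sphingomyelin, stood at 352 ± 28.0 and 18.7 ± 2.48 TPM in Plcg2+/+ against 329 ± 25.3 and 17.8 ± 1.177 TPM in Plcg2-/- (SD, n = 3 each).

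Of 5 soluble activators, binding proteins and a peptidase, Gm2a alone was called, beside 15.6% higher and 5.31% lower over all genes. Gm2a (ENSMUSG00000000594.7, chromosome 11, 55098115 to 55113029, plus strand), which presents a ganglioside for hydrolysis, was at 123, 146 and 123 TPM in Plcg2+/+ and at 185, 169 and 169 TPM in Plcg2-/- libraries, all 3 above. It rose by 0.41 ± 0.11 in log2 units (SE; limma adjusted p = 0.0431), with 0.0546 under the replicate block and 0.329 after median-of-ratios scaling. The call of Gm2a was lost on omitting Plcg2+/+ 1 and 3 (limma adjusted p = 0.131 and 0.0774) and on omitting Plcg2-/- 1, 2 and 3 (limma adjusted p = 0.142, 0.0677 and 0.101). Grn, the precursor of the lysosomal granulins, was at 2370.1, 2471 and 2555 TPM in Plcg2+/+ and 3493, 3310.3 and 2848 TPM in Plcg2-/-. Npc2, the soluble carrier of cholesterol, was at 522, 523 and 553 TPM in Plcg2+/+ and 745, 651 and 602 TPM in Plcg2-/-. Every Plcg2-/- value of Grn and Npc2 was above the Plcg2+/+ values, but neither was called (limma adjusted p = 0.104 and 0.110). Psap and the peptidase Tpp1 overlapped, with limma adjusted p of 0.515 and 0.964.

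Other lysosomal hydrolases and sorting genes, taken from lists that do not overlap the 41, also moved both ways. Acp5, a tartrate-resistant phosphatase of osteoclasts and macrophages, fell from 57.5 ± 15.8 to 22.4 ± 5.51 TPM and Dnase2a, the lysosomal DNase, from 164 ± 13.8 to 113 ± 12.2 TPM, while Plbd2, a phospholipase-like protein, rose from 55.6 ± 7.29 to 78.5 ± 5.06 TPM (SD, n = 3 each; limma adjusted p = 0.0120, 0.0262 and 0.0356). Of 20 other hydrolase genes 1 was higher and 2 lower, with a median log2 fold change of -0.06, and after median-of-ratios scaling 0 and 6. Igf2r, a receptor that carries hydrolases to endosomes, fell from 27.9 ± 9.45 to 12.8 ± 1.69 TPM, and Vps26a and Vps35, of the retromer that returns such receptors, rose from 63.7 ± 6.50 to 104 ± 12.5 and from 65.6 ± 2.62 to 102 ± 14.9 TPM (limma adjusted p = 0.0244, 0.0150 and 0.0213). That was 2 higher and 1 lower of 5 sorting genes. Over all 79 tested genes of the 5 lists 13 were higher (16.5%) and 9 lower (11.4%), beside the 15.6% and 5.31% of all genes. After median-of-ratios scaling 5 were higher and 17 lower, beside 7.71% and 7.85% of all genes.

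Single libraries also decided calls in these lists, by the limma adjusted p. On omitting Plcg2+/+ 1 it was 0.0534 for Dnase2a, 0.0513 for Plbd2, 0.0686 for Igf2r, 0.0606 for Vps26a and 0.0725 for Vps35, and on omitting Plcg2+/+ 2 it was 0.0743, 0.0878 and 0.0661 for Dnase2a, Plbd2 and Vps35. On omitting Plcg2+/+ 3 it was 0.0518 for Dnase2a and 0.0594 for Plbd2. On omitting Plcg2-/- 1 it was 0.0599 for Acp5, 0.101 for Dnase2a, 0.129 for Plbd2, 0.106 for Igf2r, 0.0710 for Vps26a and 0.0903 for Vps35. On omitting Plcg2-/- 2 it was 0.0512 for Plbd2 and 0.0562 for Igf2r, and on omitting Plcg2-/- 3 it was 0.0524, 0.0886, 0.105, 0.0685, 0.0605 and 0.0745 for Acp5, Dnase2a, Plbd2, Igf2r, Vps26a and Vps35. Plbd2 and Vps35 had 0.202 and 0.0541 after median-of-ratios scaling. A Y-linked covariate ended the calls of Dnase2a, Plbd2, Igf2r and Vps35 (limma adjusted p = 0.0829, 0.106, 0.0686 and 0.0624).

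On the X chromosome lie 4 of the 41 genes, Gla, Ids, Lamp2 and Tfe3, which went different ways: 1 fell, 1 rose and 2 were not called. Over all genes 15.6% were higher and 5.31% lower. Their limma adjusted p with a Y-linked covariate was 0.110, 0.0336, 0.913 and 0.333 for Gla, Ids, Lamp2 and Tfe3. The part of sex in their values was not tested beyond the Y-linked covariate.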

How the data were processed

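Expression was deposited by the authors as TPM, in 1 table over genes, that is, transcript abundances scaled so that each library sums to 1000000, which keeps no depth; the depth behind a value is unknown. The submitters' processing notes list GRCm38.p6 as the build and, as tools, R 4.0.4, DESeq2 1.30.1 and Salmon 1.3.0. Neither their roles nor the step behind TPM is stated in the labels. PolyA selection and 150-bp paired reads are named per the labels' protocols.

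Each value was taken as log2(TPM + 1), which understates the change of low genes. Genotypes were compared by the moderated two-sided test of limma 3.58.1 (R 4.3.3), its prior variance following the mean, over the 12652 genes that averaged 1 TPM or more, with Benjamini-Hochberg adjustment over all of them and a threshold of 0.05. Here ± after a TPM mean is the SD and after a log2 change the moderated standard error. The labels do not say that replicates are separate animals, so a p-value reflects spread among these libraries alone, which may be technical. The test was checked on simulated data. Python 3.11.15, pandas 2.3.3, numpy 2.4.6 and matplotlib 3.10.9 were used for tables and plots, GENCODE M21 for positions and RefSeq (GRCm38.p6) for promoters.

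The members, role groups and lists of other lysosomal genes were chosen with earlier results of these data known. By rule, values per library are given for called members, the member with the lowest p of each role group and both transcription factors, and of the other lysosomal lists up to 4 called genes each, Atp6v0d2, Mitf and Tfec are named. Atp6v0a1, Tmem192, Mtor, Lamtor5, Aga, Spns1 and the values per library of other members were added after their values were seen.

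Replicate numbers come from the titles. For replicates 1, 2 and 3 the correlation of deviations from genotype means across genotypes was 0.295, 0.193 and 0.147. For libraries of unlike number it was -0.195 to 0.00369. Libraries of like number may therefore be pairs, which the labels do not state. The main test and the permutation test took no account of such pairs, and the blocked fit is given as an alternative.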

Additional observations from a re-analysis of the deposited data

How the results depend on the processing

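The limma test called 5 of the 41 lysosomal genes higher and 5 lower, 13 and 9 of the other lysosomal genes, and 1971 and 672 of all genes. After median-of-ratios scaling the counts were 2 and 9, 5 and 17, and 975 and 993. After quantile normalization the counts were 4 and 11, 5 and 17, and 959 and 1031. Rescaled without mitochondrially encoded genes the counts were 2 and 5, 7 and 12, and 1225 and 821. Rescaled without the 100 most abundant genes the counts were 2 and 13, 5 and 19, and 869 and 1115. With no filter on low values the counts were 2 and 3, 7 and 4, and 1226 and 500. With a Y-linked covariate the counts were 1 and 2, 3 and 3, and 842 and 375. With the replicate block and median-of-ratios scaling the counts were 2 and 10, 6 and 18, and 1104 and 1127. With the replicate block alone the counts were 4 and 5, 15 and 12, and 2483 and 815. On the deposited scale the block changed the calls of Gaa, Gm2a and Cd63 and no other member, and with median-of-ratios scaling those of Npc1, Lipa and Galc and no other member. Leaving out 1 library at a time gave 0 to 4 higher and 0 to 6 lower of the 41; 2 to 13 higher and 2 to 9 lower of the other lysosomal genes; 559 to 2106 higher and 276 to 644 lower of all genes by limma. The cause was not tested. Signs of uncalled log2 fold changes turned as follows. After median-of-ratios scaling Idua was -0.13, Arsa -0.13, Lamp2 -0.20, Scarb2 -0.18, Ctns -0.062 and Tfeb -0.072, the same as with the block and that scaling. After quantile normalization Idua was -0.19, Arsa -0.16, Psap 0.46, Lamp2 -0.23, Scarb2 -0.26, Ctns -0.16, Tfeb -0.14 and Tfe3 -0.081. Rescaled without mitochondrially encoded genes Idua was -0.054, Arsa -0.047, Lamp2 -0.12 and Scarb2 -0.099. Rescaled without the 100 most abundant genes Idua was -0.18, Arsa -0.17, Lamp2 -0.25, Scarb2 -0.23, Ctns -0.11, Tfeb -0.12 and Tfe3 -0.032. With a Y-linked covariate Neu1 was 0.0024 and Atp6v1h 0.022. Without 1 library the values ran from -0.0012 to 0.16 for Arsa, from -0.13 to 0.0011 for Atp6v1a, from -0.12 to 0.047 for Atp6v1h, from -0.22 to 0.080 for Glb1, from -0.034 to 0.18 for Idua, from -0.093 to 0.13 for Lamp2, from -0.046 to 0.052 for Neu1, from -0.014 to 0.095 for Scarb2, from -0.16 to 0.021 for Smpd1 and from -0.11 to 0.098 for Tpp1. TPM keeps no depth, so counting error is unknown.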
